A study of Mus musculus with 6 samples.

Results

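Prostaglandins are short-lived lipid signals made from arachidonic acid. A cyclooxygenase, encoded by Ptgs1 or by the inducible Ptgs2, makes prostaglandin H2, and a terminal synthase turns that into one product: Ptges makes prostaglandin E2, Ptgis makes prostacyclin and Ptgds makes prostaglandin D2. Hpgd, 15-hydroxyprostaglandin dehydrogenase, inactivates prostaglandins inside the cell, and Ptger2, Ptger3 and Ptger4 encode the prostaglandin E2 receptors EP2, EP3 and EP4. EP2 and EP4 raise cyclic AMP, which relaxes muscle, while EP3 mostly lowers it. Collecting lymphatic vessels pump lymph by contractions of their muscle, and prostanoids are known to change the strength and the rate of those contractions.

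These 9 genes were chosen by symbol from the 31017 gene symbols of a single-cell RNA survey of mouse collecting lymphatic vessels, and all 9 had UMIs (unique molecular identifiers, each 1 captured mRNA molecule). The survey held 6 libraries from untreated C57BL/6 mice of 3 ages, with a library labelled male and another labelled female at each: 6 weeks (called young here), 12 months (middle-aged) and 18 months (aged, from a national ageing colony). The vessels joined the inguinal and the axillary lymph node, were made visible with Evans Blue dye, cleared of fat and connective tissue and digested with collagenase, elastase, dispase and DNase, and mRNA was counted from its 3′ end in droplets. How many mice went into each library was not given in the sources used here. The p-values for age thus measure the spread between these libraries, which may be partly technical. Where cell types, subsets or their age differences are compared, differences between libraries are taken out first. Those p-values measure the scatter that remains within these 6 libraries.

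In the 24488 barcodes with at least 500 genes and at most 10% mitochondrial UMIs, 21161 cells were given a cell type from marker genes that include none of the 9. They hold 59776 UMIs of the 9 genes among 78557914 UMIs. The 6 libraries hold 999 to 8228 such barcodes and 9616652 to 28921825 UMIs in all; 63 barcode sequences occur in more than 1 library (126 cells). Xist and the Y-linked genes go against the labelled sex of both middle-aged libraries: in CPM (UMIs scaled to a common total), Xist stands at 1402 and the Y chromosome's genes at 0.11 in the one labelled male, while Xist stands at 0.25 and those genes at 265 in the one labelled female. The labels are used below as names of the libraries, and labelled sex enters only alternative fits of age. Lymphatic endothelial sums had all 10 lymphatic markers, at a summed level of 5771 to 8848 CPM, beside 3232 to 3466 CPM of blood endothelial markers. Smooth muscle sums had all 10 muscle markers and 1951 to 2548 CPM of pericyte markers, and no marker used here tells lymphatic from blood vessel muscle. In dendritic cells and monocytes 1 of the 7 monocyte markers was at 0. The monocyte markers summed there to a median of 870.6 CPM over libraries, against 978.5 in B cells and 804 in fibroblasts, so they do not set this type apart. Its 2 clusters had Cd209a, or Ccr7 and Ccl22, of the dendritic markers among their top genes. A cluster of 713 cells with Ly6c2 and one of 804 cells with Ccr2 among their top genes stayed untyped, so such cells are missing from the main comparisons. Smooth muscle and lymphatic endothelium were few, with 213 and 254 cells, against 11749 fibroblasts and 4436 macrophages.

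The genes lie on different chromosomes, with a group on chromosome 2. On GRCm38 (mm10), by the GENCODE M21 annotation, all 9 are protein coding: Ptgs1 spans chr2:36230426-36252272 on the plus strand, Ptgs2 chr1:150100031-150108227 plus, Ptges chr2:30889471-30929863 minus, Ptgis chr2:167191805-167240604 minus, Ptgds chr2:25466709-25470046 minus, Ptger2 chr14:44988195-45003820 plus, Ptger3 chr3:157566892-157645888 plus, Ptger4 chr15:5206661-5244187 minus and Hpgd chr8:56294585-56321043 plus. The 2 cyclooxygenase genes were led by different cell types, so the 250 bases before each start are shown, 5′ to 3′ along the gene, from RefSeq on GRCm38.p6 (chr2:36230176-36230425 for Ptgs1 and chr1:150099781-150100030 for Ptgs2, both plus). Capitals mark matches to 6 motifs that were searched.
Ptgs1: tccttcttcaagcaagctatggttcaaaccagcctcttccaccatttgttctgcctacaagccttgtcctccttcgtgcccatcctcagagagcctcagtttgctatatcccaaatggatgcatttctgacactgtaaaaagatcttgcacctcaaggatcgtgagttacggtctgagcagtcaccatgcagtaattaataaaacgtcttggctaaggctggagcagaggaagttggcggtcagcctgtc
Ptgs2: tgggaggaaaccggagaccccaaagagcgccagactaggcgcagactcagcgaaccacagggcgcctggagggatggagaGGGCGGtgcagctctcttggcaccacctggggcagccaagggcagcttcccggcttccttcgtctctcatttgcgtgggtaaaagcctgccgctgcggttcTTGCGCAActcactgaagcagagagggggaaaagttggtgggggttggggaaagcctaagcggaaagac
The Ptgs2 window holds 1 GC box (GGGCGG), 170 bases before the start, and 1 C/EBP motif (TTNNGCAA), 69 bases before it. The Ptgs1 window holds none of the 6 motifs. Its GC content is 48%, against 61.6% in the Ptgs2 window. Among 32851 mouse promoters of this length in the table, the share with a match is 32.7% for the GC box, 9.56% for the C/EBP motif, 7.59% for the TATA box (TATAAA, searched on the gene's strand), 6.02% for the E box (CACGTG), 17.8% for the core of the cyclic AMP response element (TGACG) and 1.21% for the NF-kB motif (GGGA and TTCC with 2 bases between them); all but the TATA box were searched on both strands, and overlaps between motifs were allowed. A match is only a run of letters, and 8 of the 9 genes had a promoter in the table. Only the 250 bases before the RefSeq start were searched, so a motif beyond them, or just after that start, would be missed.

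Levels were compared over sums of UMIs per library and cell type, each of at least 20 cells, for the 11 types with such sums in 3 or more libraries. Each type was set against the unweighted mean of the other types with edgeR's quasi-likelihood F test, with library as a block and Benjamini-Hochberg adjustment over the 8634 genes tested; a gene is called below an adjusted p of 0.05. Ptgs1, Ptgs2, Ptges, Ptgis, Ptger3, Ptger4 and Hpgd passed the filter on low counts, and Ptgds and Ptger2 did not. A gene passes if enough sums are high, whatever their type, so a gene high in few types passes through those types. A log2 difference against types whose UMIs are near 0 depends on the small count the test adds, so such values mark a direction and not a fold. Each SE given with an edgeR value is the size of its log2 difference over the square root of F, and shares that limit. Of the 77 pairs of these 7 genes and 11 types, 23 (29.9%) were called higher and 6 (7.79%) lower, near the 24.3% and 12% of all gene and type pairs, so the counts themselves are no result about these genes. CPM is not corrected for length, so levels are compared between cell types and not between genes.

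**Figure D1:**
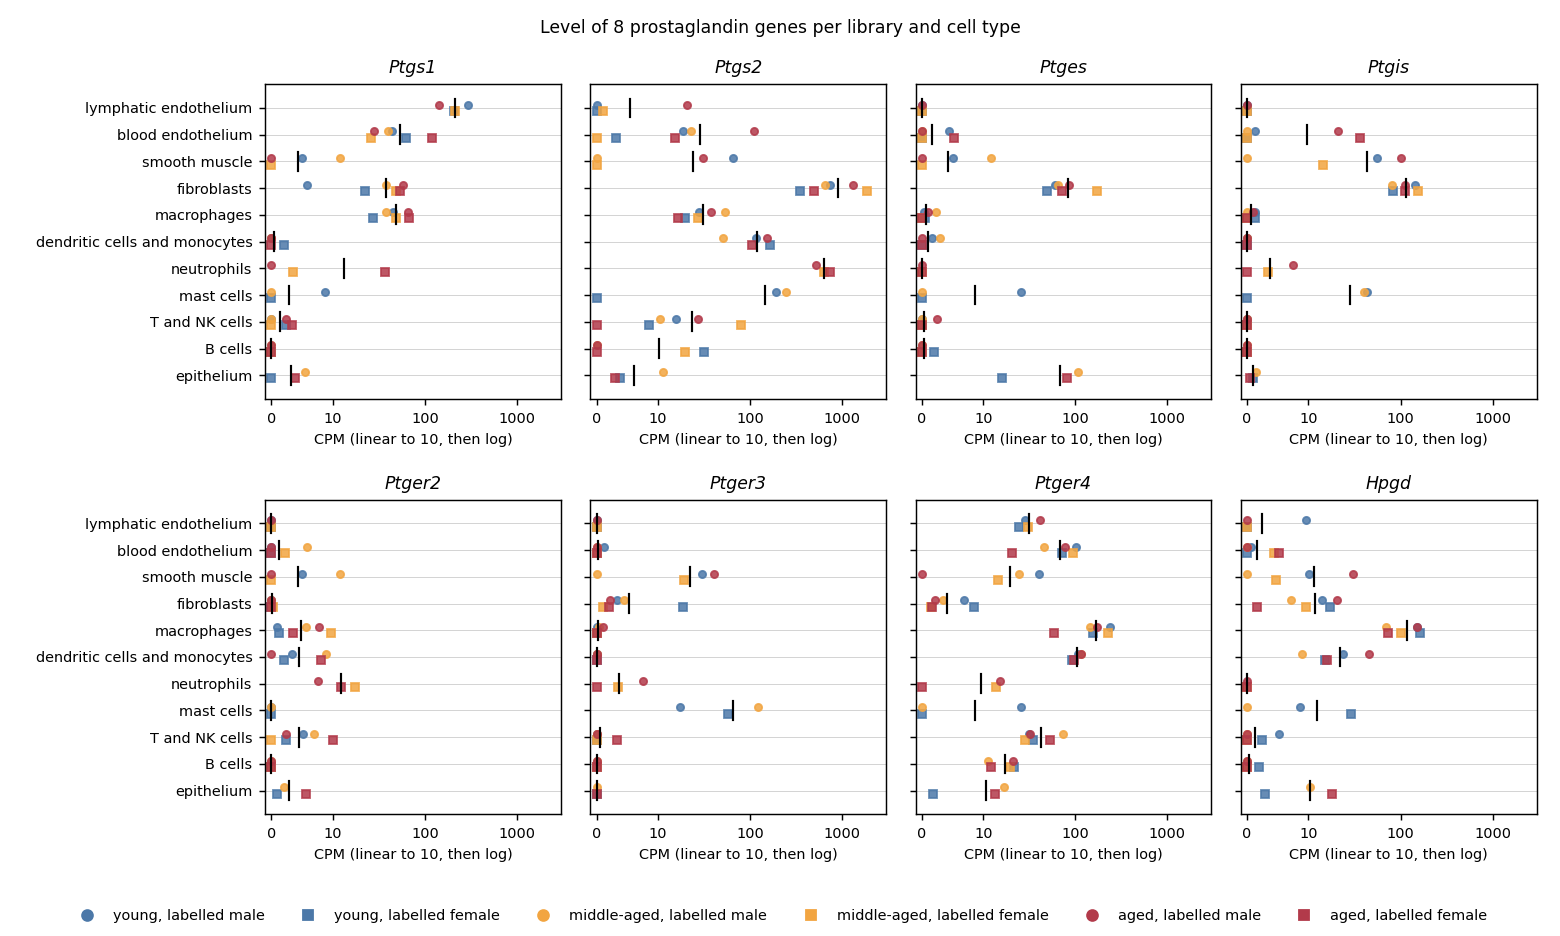
Level of 8 of the 9 genes (all but Ptgds) by cell type, in CPM on an axis that is linear to 10 and log above; each point is 1 library's sum of at least 20 cells, coloured by age and shaped by labelled sex, and each black bar is the mean over libraries. Ptgs1 is highest in lymphatic endothelium (141 to 296 CPM), Ptgs2 and Ptgis have their highest mean in fibroblasts, and Hpgd and Ptger4 in macrophages.

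The enzymes that make prostaglandins were split between cell types. Ptgs1, the cyclooxygenase that many tissues carry at rest, was led by lymphatic endothelium, and Ptgs2 and Ptgis were led by fibroblasts. Ptges was high in fibroblasts and epithelium alike. Hpgd and the receptor gene Ptger4 were led by macrophages. Lymphatic endothelium had no UMI of Ptges, Ptgis, Ptgds, Ptger2 or Ptger3 in its 4 sums, in 230 cells.

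In lymphatic endothelium, Ptgs1 stood at 296 CPM in the young male, 206 in the young female, 212 in the middle-aged female and 141 in the aged male library; the remaining libraries had under 20 such cells. It was the top type in all 4 of these libraries, and its lowest sum lies above the 119 CPM of the highest blood endothelial sum. The mean was 214 ± 63.4 CPM (SD, n = 4), against 53.3 ± 34.7 CPM in blood endothelium (n = 6), the second in order. Lymphatic endothelium was higher than the mean of the other types by 5.41 on the log2 scale (SE 0.40, adjusted p = 4.91e-16), a call that 24.6% of all genes tested also had there. It was also higher than blood endothelium, by 2.14 (SE 0.39, adjusted p = 2.9e-05; 12.1% of genes were called in that contrast), in 4 of 4 libraries.

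The share of lymphatic endothelial cells with a Ptgs1 UMI was 50% (95% exact binomial interval 28.2 to 71.8), 43.5% (23.2 to 65.5), 62.6% (51.9 to 72.6) and 48.9% (38.5 to 59.5) in the same order. B cells had 0 of 403 cells with a UMI in the young female library, which allows a share of up to 0.911% by the exact interval. They had 0 UMIs in the other 4 libraries with enough B cells. B cells are shallow (median 1182 UMIs per cell, against 5344 in lymphatic endothelium). With each cell thinned to 1000 UMIs, 16.5 to 31.8% of lymphatic endothelial cells and 0% of B cells kept one. These intervals cover counting error only.

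Ptgs1 was also called higher than the mean of the other types in blood endothelium (log2 3.06, SE 0.45, background 26%), macrophages (3.19, SE 0.37, background 34.4%) and fibroblasts (2.62, SE 0.39, background 36.6%), where background is the percentage of all genes tested that were called in that direction. Its macrophage sums ran from 27.7 to 68.1 CPM and its fibroblast sums from 5.78 to 58.2 CPM, so these ranges overlap with each other and with blood endothelium. In B cells it was called lower (background 13.3%), with 0 UMIs in all 5 sums, so no fold is given; that call was lost when the young female, the middle-aged male, the aged male or the aged female library was left out (adjusted p = 0.051 to 1). Dendritic cells and monocytes had 1 Ptgs1 UMI in 5 sums.

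Ptgs2, the cyclooxygenase induced by injury and inflammation, was led by fibroblasts, followed by neutrophils. Fibroblasts had 732 CPM in the young male, 351 in the young female, 657 in the middle-aged male, 1875 in the middle-aged female, 1326 in the aged male and 499 in the aged female library. The middle-aged female and the aged male sums stand above the other 4. Fibroblasts of the libraries with Y-linked genes (young male, middle-aged female and aged male) had 732, 1875 and 1326 CPM. Those of the libraries with Xist (young female, middle-aged male and aged female) had 351, 657 and 499 CPM, lower at each age and without overlap. The part of sex in these levels was not tested. Neutrophils, present in 3 libraries, had 629 CPM in the middle-aged female, 514 in the aged male and 744 in the aged female library, inside the fibroblast range. Fibroblasts were higher than the mean of the other types by 4.63 (SE 0.27, adjusted p = 5.4e-21) and neutrophils by 4.45 (SE 0.44, adjusted p = 2.57e-12; background 18.3%). Fibroblasts and neutrophils were not told apart, with a log2 difference of 0.16 (SE 0.53, adjusted p = 0.829; 34% of genes were called). Because fibroblasts were so many, they held 97.3% of the Ptgs2 UMIs of all typed cells.

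Among the other types, dendritic cells and monocytes had 117.5 ± 44.5 CPM of Ptgs2 (n = 5) and were called higher (log2 1.81, SE 0.40, background 23.5%). Mast cells ranged from 0 to 243.5 CPM on 28 UMIs, without a call. Ptgs2 was called lower in lymphatic endothelium (log2 -3.19, background 10.6%), epithelium (-2.90, background 13%), blood endothelium (-1.60, background 10.2%) and T and NK cells (-1.56, background 14.4%). The last pair of calls did not hold with each library left out in turn, though the values stayed negative. Blood endothelium lost its call without the young male (-1.20), the young female (-1.22), the middle-aged female (-0.85) or the aged male library (-1.53). T and NK cells lost theirs without the young male (-1.18), the young female (-1.28), the aged male (-0.71) or the aged female library (-1.21). With sums thinned to 1 depth the value in blood endothelium was 0.30, and with clusters taken without the per-cell marker check that in T and NK cells was 0.43. DESeq2 made 21 lower calls in all. The 4 lymphatic endothelial sums held 0, 0, 1.11 and 20.5 CPM of Ptgs2 on 17 UMIs in all, so the type that led Ptgs1 was at the bottom of the order for Ptgs2. Free RNA is a limit here: droplets with at most 100 UMIs carried Ptgs2 at 37.2 to 304 CPM, at or above the low levels in endothelium and lymphocytes.

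The tissue was digested at 37 °C, a step during which immediate early genes can be induced. The summed level of 16 such genes, Fos, Jun and Egr1 among them, was 10550 to 14630 CPM in fibroblasts. Its lowest value fell in the middle-aged female library, where Ptgs2 was highest. Its highest value fell in the aged male library, where Ptgs2 was second highest (1326 CPM). Lymphatic endothelium had 17360 to 21660 CPM of the same sum with Ptgs2 near 0. Mast cells had 33450 to 35650 CPM of it, with 0 to 243.5 CPM of Ptgs2. The part of digestion in the Ptgs2 level was not tested.

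Ptges, the inducible prostaglandin E2 synthase, was high in 2 types. Fibroblasts had 59.7, 49.5, 65.4, 170.2, 84.4 and 72.3 CPM from the youngest to the oldest age, with the library labelled male before the one labelled female at each. Epithelium, in which 1 of 2 clusters was led by milk-protein genes such as Csn2 and the other by Wfdc2 and Prlr, came from 3 libraries and had 16.1, 107.5 and 81.8 CPM in the young female, the middle-aged male and the aged female library. Both were called higher than the mean of the other types, fibroblasts by 5.82 (SE 0.29, adjusted p = 1.92e-22) and epithelium by 5.66 (SE 0.42, adjusted p = 2.56e-15; background 31.4%). They overlap, and fibroblasts were the higher in 1 of the 3 libraries with both. The fibroblast mean was 83.6 ± 44.0 CPM (n = 6) and that of epithelium 68.5 ± 47.1 CPM (n = 3), but without the middle-aged female library (170 CPM) the fibroblast mean was 66.2 ± 13.2 CPM. The difference between them was 0.14 (SE 0.32, adjusted p = 0.741; 24% of genes were called). Ptges passed the filter on low counts only through sums of these 2 types, since other types reached at most 26.0 CPM. The 2 calls of a higher level are thus no independent support for the order of types. Macrophages, the second largest type, had 11 Ptges UMIs in 6 sums.

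Ptgis, which makes prostacyclin, a relaxant of vascular muscle, had 98.8% of its UMIs in typed cells in fibroblasts, which were also 11749 of the 21161 such cells. Fibroblasts had 145, 82.3, 81.5, 154.3, 112.2 and 112.6 CPM in the same library order, and they were the top type in 6 of 6 libraries. Smooth muscle had 55.7, 0, 14.3 and 101.7 CPM in the young male, middle-aged male, middle-aged female and aged male libraries, on 24 UMIs in all, and reached the fibroblast range in the last of these. These sums carry 295.7 to 7133 CPM of fibroblast markers and up to 10.7% free RNA. Both were called higher than the mean of the other types, fibroblasts by 6.92 (SE 0.36, adjusted p = 1.08e-18) and smooth muscle by 4.90 (SE 0.84, adjusted p = 1.36e-05; background 21%). Fibroblasts were higher than smooth muscle by 1.84 (SE 0.51, adjusted p = 0.00514; 16.8% of genes were called), in 4 of 4 libraries. DESeq2 did not call that last difference (adjusted p = 0.116). Mast cells were called too, on 6 UMIs (background 9.2%), in sums that carry 115 to 14530 CPM of fibroblast markers and up to 11.45% free RNA, but not with clusters taken without the per-cell marker check (2.17). With the upper estimate of free RNA subtracted, Ptgis was still called in smooth muscle (5.34) and mast cells (4.86, adjusted p = 0.0383); the part of fibroblasts in these sums was not tested. Lymphatic endothelium had no Ptgis UMI, and blood endothelium 12, in 6 sums.

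Ptgds was close to absent from the typed cells, with 24 UMIs in all. Epithelium held 11 of them, in 8 of 208 cells of the aged female and 1 of 332 cells of the middle-aged male library. Macrophages held 7, all in 1 cell of the aged male library, and fibroblasts 6.

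**Figure D2:**
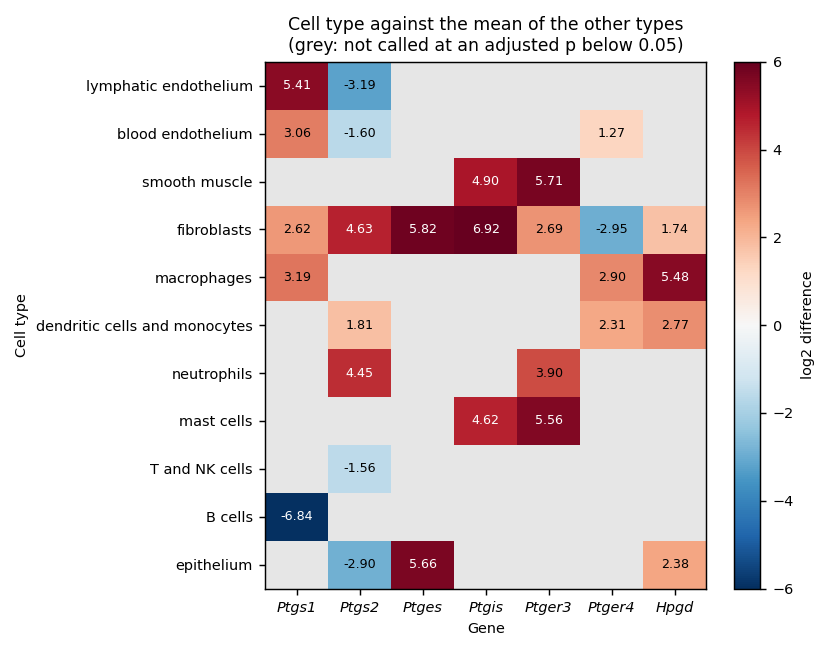
Log2 difference of each of the 7 tested genes in each cell type from the mean of the other types, by edgeR; coloured cells with a value are called and grey cells are not, and the colour scale ends at 6 in either direction. The makers Ptgs2, Ptges and Ptgis are called higher in fibroblasts, where Ptger4 is called lower (-2.95).

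Hpgd, the degrading enzyme, had its highest level in macrophages, which held 63.6% of its UMIs in typed cells, while fibroblasts, the largest type, held 28%. It stood at 150.4, 161 and 69.3 CPM in macrophages of the young male, young female and middle-aged male libraries, at 100.2 CPM in those of the middle-aged female library, and at 151 and 73.3 CPM in those of the aged male and female ones. All 6 sums lie above the highest sum of dendritic cells and monocytes (45.9 CPM), the second in order. Macrophages were higher than the mean of the other types by 5.48 (SE 0.28, adjusted p = 1.23e-22) and higher than dendritic cells and monocytes by 2.46 (SE 0.38, adjusted p = 4.32e-07; 22.2% of genes were called), in 5 of 5 libraries. When cells were typed by the per-cell marker score alone, that last difference was 1.04 and was not called. Hpgd passed the filter on low counts only through macrophage sums and the highest sum of dendritic cells and monocytes, since other types reached at most 30.5 CPM. The macrophage calls are thus no independent support for the order of types. Smaller calls of a higher level were made in dendritic cells and monocytes (2.77), epithelium (2.38) and fibroblasts (1.74), and all of these were lost when cells needed at least 1000 genes (1.26, 1.06 and 0.52). Neutrophils, which shared high Ptgs2 with fibroblasts, had 0 Hpgd UMIs in 3 sums; 0 of 143 cells in the largest of them allows a share of cells with a UMI of up to 2.55%. In macrophages that share was 11.4 to 34.7%, at median depths of 1831 to 7333 UMIs per cell.

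Of the receptor genes, Ptger4 had the highest counts and was led by macrophages. They had 237.5, 156.5, 144 and 226 CPM in the young male, young female, middle-aged male and middle-aged female libraries, 173.5 CPM in the aged male and 59.4 CPM in the aged female library. The aged female sum is the lowest and falls below dendritic cells and monocytes (92.0 to 116 CPM). Macrophages were called higher than the mean of the other types by 2.90 (SE 0.21, adjusted p = 3.14e-17), dendritic cells and monocytes by 2.31 (SE 0.29) and blood endothelium by 1.27 (SE 0.29). The step between macrophages and dendritic cells and monocytes, 0.54 (SE 0.31, adjusted p = 0.183), was not called. Fibroblasts were called lower by 2.95 on the log2 scale (log2 -2.95, SE 0.40, adjusted p = 9.37e-09; background 14.2%), with 1.46 to 8.51 CPM in 6 sums. Lymphatic endothelium had 24.8 to 41.0 CPM of Ptger4 and smooth muscle 0 to 40.5 CPM, without a call in either.

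Ptger3 had its highest levels in mast cells and smooth muscle, on small counts, while fibroblasts held 88% of its 283 UMIs. Mast cells had 17.3, 57.5 and 122 CPM in 3 libraries on 7 UMIs, and smooth muscle had 30.4, 0, 19.1 and 40.7 CPM in 4 libraries on 14 UMIs. Both were called higher than the mean of the other types, smooth muscle by 5.71 (SE 0.80, adjusted p = 2.68e-07) and mast cells by 5.56 (SE 1.03, adjusted p = 9.14e-05). Ptger3 passed the filter on low counts only through sums of these 2 types, since other types reached at most 18.6 CPM. These 2 calls are thus no independent support for the order of types. Mast cells and smooth muscle were not told apart, with a log2 difference of -0.14 (SE 0.68, adjusted p = 0.968; 8.66% of genes were called). Fibroblasts, at 1.04 to 18.6 CPM on 249 UMIs, were called higher by 2.69 (SE 0.51), and neutrophils on 2 UMIs; DESeq2 called neither (adjusted p = 0.0506 and 0.292). Ptger2 had 116 UMIs: neutrophils had 7.56 to 17.3 CPM on 7 of them, macrophages 0.85 to 9.70 CPM on 48, epithelium 0.95 to 5.68 CPM on 37, of which 32 were in the aged female library, and fibroblasts 1 UMI in all.

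For each gene, the 3 genes whose mean levels over the 11 types were most like its own, by Pearson's r of log2(CPM + 1), were looked up as a description. These types share libraries, and genes of a type move together. For Ptgs1 they were Vcam1 (0.931), Slc10a6 (0.929) and Thbd (0.911), for Ptgs2 Il1r2 (0.940), Emilin2 and Dhrs9, and for Ptgis Twist1 (0.976), Ebf2 and Col6a3. For Ptges they were Clip4 (0.983), Dclk1 and Naaladl2, for Ptger4 Cysltr1 (0.883), Txn2 and Ms4a6d, for Hpgd Slc11a2 (0.945), Abca9 and Spire1, and for Ptger3 Hectd2 (0.916), P2rx1 and Sgcd.

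Fibroblasts were not uniform. Cells with markers of the adventitial subset (Pi16, Dpp4, Sema3c and others, 8226 cells) were set against cells with markers of the Col15a1 stromal subset (Col15a1, Agt, Penk and others, 2873 cells) in the same 6 libraries, with library as a block. Ptgs1, Ptgs2 and Ptgis were higher in adventitial cells, and Ptger3, Ptger4 and Hpgd were lower, while Ptges was not called. These 6 of 7 tested genes were called, where 21.9% of all 10007 genes tested were.

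Ptgs2 averaged 1027 ± 628 CPM in adventitial and 317 ± 140.4 CPM in Col15a1 stromal cells (SD, n = 6 each), a log2 difference of 1.64 (SE 0.12, adjusted p = 9.91e-07). It was higher in adventitial cells of all 6 libraries. Ptgs1 averaged 43.0 ± 21.5 CPM in adventitial and 7.41 ± 5.85 CPM in Col15a1 stromal cells (log2 2.58, SE 0.29, adjusted p = 2.79e-05), and Ptgis 133 ± 37.7 CPM in adventitial and 33.8 ± 19.5 CPM in Col15a1 stromal cells (1.95, SE 0.21, adjusted p = 2.13e-05). Ptger3 stood at 0.84, 4.80, 1.45, 0, 0.58 and 0.45 CPM in adventitial cells, from young male to aged female, against 9.06, 47.5, 20.1, 9.26, 11.2 and 16.7 CPM in Col15a1 stromal cells. The 2 ranges do not overlap (log2 -3.69, SE 0.29, adjusted p = 1.43e-06). Ptger4 averaged 1.76 ± 1.16 CPM in adventitial and 12.5 ± 6.05 CPM in Col15a1 stromal cells (log2 -2.52, SE 0.31, adjusted p = 6.17e-05). In the aged female library the stromal values of Ptger3 and Ptger4 rest on 3 UMIs each, in 37 cells. Hpgd averaged 8.50 ± 5.60 CPM in adventitial and 30.8 ± 29.7 CPM in Col15a1 stromal cells (log2 -1.55, SE 0.38, adjusted p = 0.00945), with 87.7 CPM in the stromal cells of the aged male library and the opposite order in the young female library (17.5 and 16.8 CPM). The Ptges difference, 0.49 (SE 0.16, adjusted p = 0.0503), was not called, though it was without the young male (0.63) or the aged female library (0.53).

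**Figure D3:**
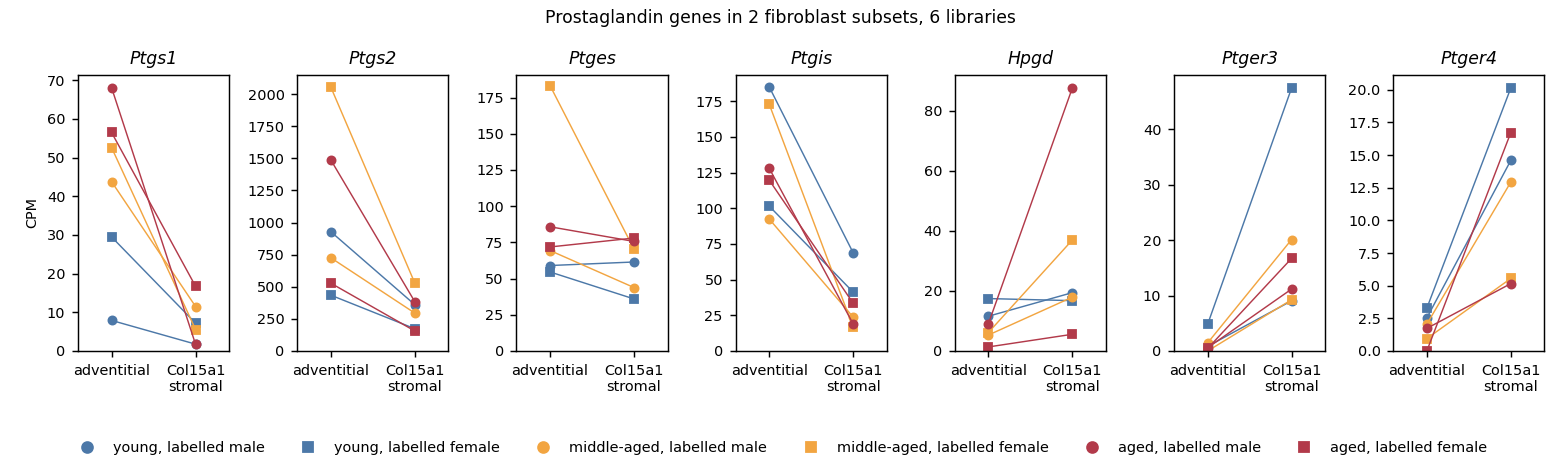
Level of 7 genes in adventitial and in Col15a1 stromal fibroblasts, in CPM on linear axes that start at 0, with a line joining the sums of each library. In all 6 libraries Ptgs1, Ptgs2 and Ptgis are higher, and Ptger3 and Ptger4 lower, in adventitial than in Col15a1 stromal cells.

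Most of the 11 fibroblast clusters drew the majority of their cells from 1 library, and there a cluster's level cannot be told apart from its library's. A cluster of 886 cells with 1740 CPM of Ptgs2 and one of 800 cells with 1546 CPM drew 75.1% and 72.6% of their cells from the aged male library, and the remainder mostly from the middle-aged female one. A cluster of 63 cells had 2847 CPM of Ptgs2 and 338 CPM of Ptges, with 68.3% of its cells from the middle-aged female library. Those are the 2 libraries with the highest Ptgs2 in fibroblasts as a whole.

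In macrophages, cells with markers of the resident subset (Lyve1, Folr2, Cd163; 6 libraries) were set against cells with markers of the activated subset (Ccl3, Ccl4, Tnf; 4 libraries). Ptgs2 averaged 25.1 ± 10.5 CPM in resident and 95.3 ± 43.9 CPM in activated macrophages and was called lower in resident cells (log2 -1.90, SE 0.28, adjusted p = 0.000904), where 2.52% of 6634 genes were called. Each of the 4 activated sums (55.8 to 138 CPM) lies above each of the 6 resident sums (15.6 to 43.9 CPM). Hpgd (0.57, adjusted p = 0.346), Ptgs1 (0.54, adjusted p = 0.467) and Ptger4 (-0.16, adjusted p = 0.787) were not called.

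Across the ages, each cell type was fitted by itself with edgeR on age alone. With the filter on low counts, no gene of the 9 was called in any of the 3 age contrasts: aged against young was tested in 18 pairs of a gene and a cell type, middle-aged against young in 14 and aged against middle-aged in 14. At an unadjusted p under 0.05 there were 5, 5 and 1 of these pairs (27.8, 35.7 and 7.14%), against 5.92, 10.5 and 6.55% of all gene and type pairs in the same fits, where genes of 1 type share their libraries. The values named here were chosen among them after they were seen. With 2 libraries at each age, sums of the ages can stand apart by chance. Calls over all genes were rare with edgeR, at 0% in fibroblasts, B cells, T and NK cells and dendritic cells and monocytes in each contrast fitted. The share was 0.0216% in macrophages for middle-aged against young and 0% there for the other contrasts. In blood endothelium it was 0.158% for aged against young, 0.0225% for middle-aged against young and 0% for aged against middle-aged. DESeq2 called more, 11 to 70 genes in fibroblasts and 6 to 146 in macrophages over the 3 contrasts. With sex in the edgeR model, and the 2 middle-aged libraries swapped in that term, 35, 23 and 0 genes were called in fibroblasts and 6, 98 and 86 in macrophages, for aged against young, middle-aged against young and aged against middle-aged, with none of the 9 among them. Lymphatic endothelium and smooth muscle had 4 sums each, which left 1 residual degree of freedom, under the minimum of 2 set here. With clusters taken without the per-cell marker check they had 5 sums each. In lymphatic endothelium 178, 54 and 7 of 3149 genes were then called in the same order of contrasts, none of the 9 among them, and in smooth muscle 8, 40 and 0 of 2844, with Ptgs2 among the 40.

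In fibroblasts Ptgs1 stood at 5.78 and 22.2 CPM in the young male and female libraries, 38.0 and 48.0 CPM in the middle-aged and 58.2 and 53.2 CPM in the aged libraries. Both aged sums lie above both middle-aged sums, and those above both young ones, an order whose share over all genes was not counted. The difference of aged from young was 2.01 on the log2 scale (SE 0.53, unadjusted p = 0.0065 and adjusted p = 0.695) and that of middle-aged from young 1.83 (SE 0.53, adjusted p = 0.541). DESeq2 called Ptgs1 in aged against young fibroblasts (adjusted p = 0.0454), 1 of the 67 genes it called among 11930. edgeR called it when run without the filter on low counts (adjusted p = 3.88e-06), where it called 318 of 19519 genes. Without the young male library the difference was 1.37.

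The share of fibroblasts with a Ptgs1 UMI, after thinning to 1000 UMIs, was 0.743 and 2.00% in the young, 3.07 and 5.81% in the middle-aged and 5.36 and 3.68% in the aged libraries; before thinning it was 1.93 and 7.22%, 10.7 and 24.0%, and 18.4 and 22.0%. In adventitial cells alone Ptgs1 had 7.90 and 29.5 CPM in the young, 43.8 and 52.6 CPM in the middle-aged and 68.1 and 56.5 CPM in the aged libraries. In Col15a1 stromal cells the ages overlap (1.77 to 7.19 CPM in the young and 1.72 to 16.7 CPM in the aged libraries). These aged stromal values rest on 2 and 3 UMIs, no more than the floor of 3 UMIs, so they cannot show an order of the ages. The young male library stands apart in fibroblasts: its 10 fibroblast markers sum to 70570 CPM, against 21210 to 38990 CPM in the other libraries, and 1 cluster of 2498 cells, led by Col1a1 and Col3a1, drew 96.8% of its cells from it. The part of this in the Ptgs1 values was not tested.

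Ptger4 went the other way in fibroblasts, at 6.92 and 8.51 CPM in the young, 3.51 and 1.46 CPM in the middle-aged and 2.21 and 1.66 CPM in the aged libraries. All 4 later sums lie below both young ones, again without a count of this order over all genes. Macrophage markers in the same sums stood at 63.9 and 64.0 CPM in the young and 12.7 to 35.4 CPM in the later libraries, and free RNA carried Ptger4 at 43.0 and 29.0 CPM in the young and 10.6 to 23.8 CPM in the later ones. The difference of aged from young was -1.98 (SE 0.52, adjusted p = 0.692) and that of middle-aged from young -1.47 (SE 0.49, adjusted p = 0.541), neither called. With the upper estimate of free RNA subtracted they were -1.997 and -1.45, again not called (adjusted p = 0.651 and 0.54); the part of macrophages in the fibroblast sums was not tested. Ptger3 had 3.36 and 18.6 CPM in the young and 2.21 and 2.08 CPM in the aged libraries, with an aged-young difference of -2.30 (SE 0.89, adjusted p = 0.868) in which the young female library stands apart. Run without the filter on low counts, edgeR called Ptger4 (adjusted p = 0.0396) and Ptger3 (0.003) in aged against young. Run so for middle-aged against young, it called Ptgs1 (adjusted p = 3.62e-05) and Ptges (0.0124) in these cells, and Ptgs2 and Ptger3 too, among 458 of 19519 genes. Ptges was higher in the middle-aged than in the young libraries by 1.24 (SE 0.48, adjusted p = 0.541), with its highest value, 170.2 CPM, in the middle-aged female library. Ptgs2 differed by 0.67 (SE 0.72, adjusted p = 0.925) between aged and young, with overlapping ages.

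In macrophages, Ptgs1 had 45.6 and 27.7 CPM in the young, 37.6 and 48.5 CPM in the middle-aged and 65.2 and 68.1 CPM in the aged libraries. Both aged sums are above all the others, and the aged-young difference was 0.88 (SE 0.31, unadjusted p = 0.018, adjusted p = 1). Ptger2 had 0.85 and 1.32 CPM in the young, 5.66 and 9.70 CPM in the middle-aged and 7.73 and 3.49 CPM in the aged libraries. The 4 later sums lie above both young ones on 48 UMIs in all. For neither gene was the share of all genes with such an order counted. Neutrophil markers in these sums moved the same way, at 191 and 146 CPM in the young and 308 to 629 CPM in the later libraries, and neutrophils had the highest mean Ptger2; their part was not tested. The difference from young was 2.84 in middle-aged (SE 0.79, unadjusted p = 0.0045, adjusted p = 0.243) and 2.43 in aged libraries (SE 0.79, adjusted p = 1). Without the filter on low counts edgeR called the first of these (adjusted p = 0.0185). Ptgs2 in macrophages was 1.09 higher in the middle-aged than in the young libraries (SE 0.43, adjusted p = 0.322), and Ptgs1 in blood endothelium was 1.28 higher in the aged than in the middle-aged libraries (SE 0.58, adjusted p = 0.622), which turned to -0.15 without the aged female library. Hpgd differed by -0.41 (SE 0.37) and Ptger4 by -0.69 (SE 0.48) between aged and young macrophages, with overlapping ages.

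**Figure D4:**
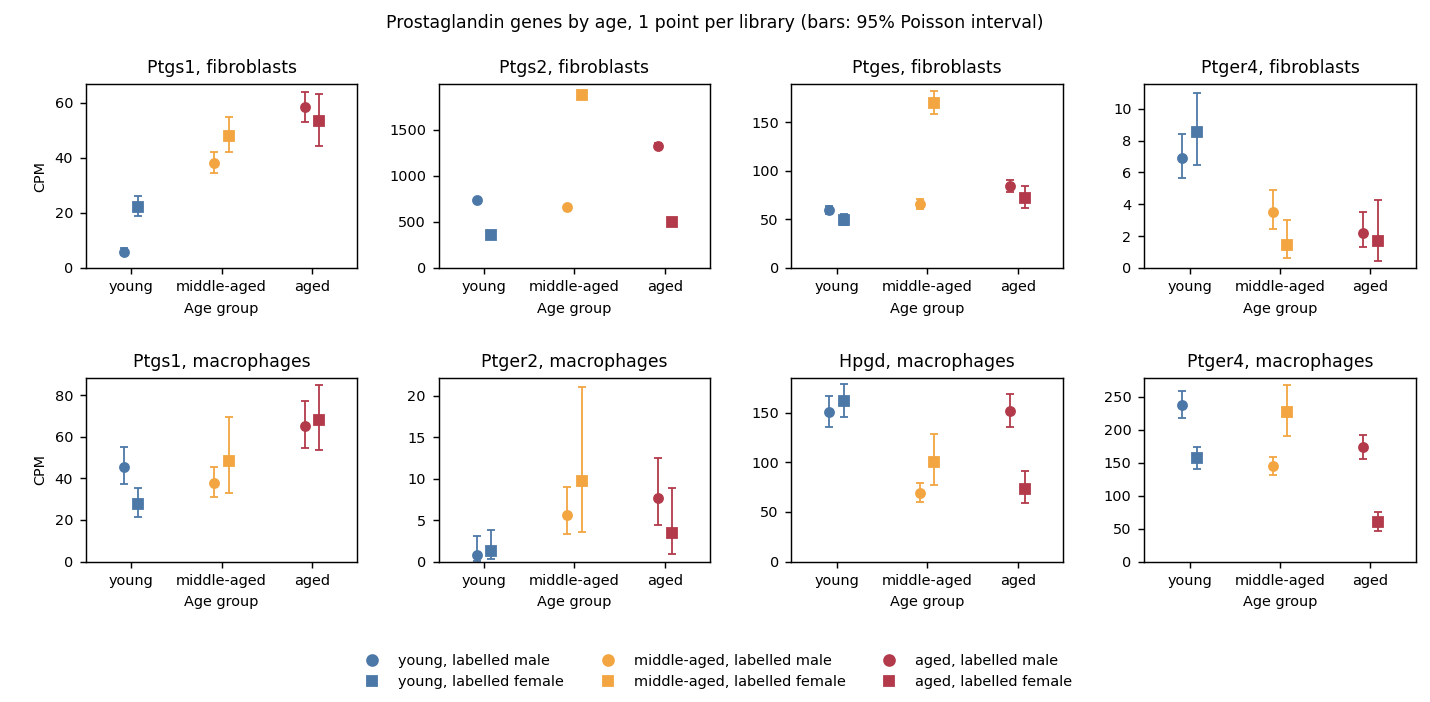
Levels by age in fibroblasts (upper row) and macrophages (lower row), in CPM on linear axes that start at 0; each point is 1 library, with 2 libraries at each age, and bars are 95% Poisson intervals of its UMI count. Ptgs1 in fibroblasts is lowest in the young male library (5.78 CPM) and highest in the aged male library (58.2 CPM), and edgeR called no difference between ages with its filter on low counts.

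Whether the age difference itself differed between fibroblasts and macrophages was tested by the interaction of cell type and age. None of the 9 genes was called with edgeR, and 0%, 0.0703% and 0% of 11375 genes were for aged against young, middle-aged against young and aged against middle-aged. For Ptgs1 the aged-young difference was larger in fibroblasts than in macrophages by 1.36 (SE 0.56, adjusted p = 0.884) and the middle-aged-young difference by 1.53 (SE 0.57, adjusted p = 0.61). Both values turn on the young libraries: they were called without the young female library, at 2.56 and 2.75, and were 0.14 and 0.32, uncalled, without the young male library.

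Other genes of the pathway were spread over several cell types. Of all genes tested, 90.2% were called higher in at least 1 of the 9 types with a background above, so the counts by list that follow are close to what any genes give. Of the listed phospholipase A2 genes, a family that includes enzymes that release arachidonic acid, 3 of 3 tested were called higher in one of these types. Pla2g4a, the cytosolic phospholipase A2, averaged 57.1 ± 16.8 CPM in fibroblasts (n = 6) and the secreted Pla2g2d 232 ± 90.0 CPM in macrophages. Pla2g7, which instead breaks down platelet-activating factor, averaged 534 ± 172.5 CPM in neutrophils (n = 3). Of other synthases and reductases, 6 of 7 were called, among them Akr1c18 in fibroblasts (172.5 ± 97.7 CPM), Fam213b, a prostaglandin F synthase, in macrophages (170.7 ± 47.7 CPM) and Hpgds, the haematopoietic prostaglandin D synthase, in mast cells (238 ± 78.3 CPM, n = 3) and macrophages (139 ± 34.5 CPM). Ptges3, a co-chaperone also described as a prostaglandin E synthase, was present in every type, with means of 105.3 CPM in neutrophils to 314.1 CPM in smooth muscle. Hpgds had 1487 UMIs in macrophages, a type with 7 of Ptgds, all in 1 cell.

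Of the transport and reduction genes, 3 of 3 were called. Slco2a1, the prostaglandin uptake transporter, was led by lymphatic endothelium like Ptgs1, at 417 ± 65.4 CPM (n = 4; log2 5.43 above the mean of the other types, SE 0.35, adjusted p = 4.71e-18), ahead of epithelium (197 ± 213 CPM) and fibroblasts (117 CPM). Abcc4, an exporter, averaged 41.4 ± 14.2 CPM in blood endothelium. Among other prostanoid receptors 2 of 2 were called: Ptgir, the prostacyclin receptor, averaged 43.2 ± 9.03 CPM in smooth muscle (n = 4, 26 UMIs; adjusted p = 5.72e-10), and Ptgfrn, a regulator of the prostaglandin F receptor, 107 ± 20.7 CPM in fibroblasts. All 6 leukotriene genes tested were called, with Alox5ap at 1478 ± 530.4 CPM in neutrophils and Ltc4s at 371 ± 109 CPM in macrophages. No gene of these lists was called in an age contrast.

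**Figure D5:**
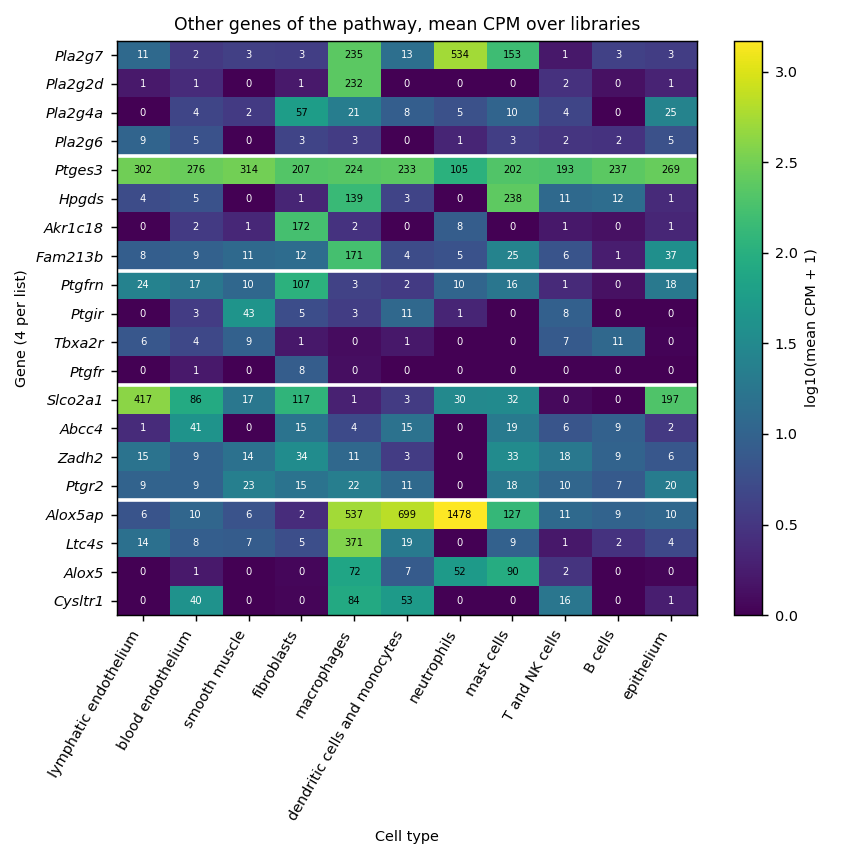
Mean level of the 4 pathway genes of each list with the highest level in any cell type, printed in CPM and coloured by log10(CPM + 1). Slco2a1 is highest in lymphatic endothelium (417 CPM), Ptgir in smooth muscle (43.2 CPM) and Pla2g2d in macrophages (232 CPM).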

How the data were processed

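The values are whole-number counts of UMIs per gene and barcode, deposited as raw matrices of all barcodes; per the submitters' processing notes Cell Ranger 3.0.2 was used with the mm10 build and Seurat, and per the labels' protocols the kit was 10x 3′ v2. The deposited matrices go against that: each lists 6794880 barcodes, the length of the v3 barcode list. The barcodes kept had 500 or more genes and no more than 10% of UMIs from mitochondrial genes; they were clustered in scanpy 1.11.5 without the 9 genes (2000 variable genes, 30 components, Leiden resolution 1.5, 37 clusters). Clusters were named from marker lists where at least 60% of cells scored highest for 1 list. Cells scoring more than 1.5 times higher for another list were left out, 3327 cells stayed untyped and 8 clusters stayed unnamed. The blood endothelial list was not counted against cells of the lymphatic cluster, nor the pericyte list against those of the smooth muscle cluster. By the per-cell marker score alone, 66 cells were typed as lymphatic endothelium, against 254 in the main result. The resolution, the 60% rule, the merging of similar classes and the factor of 1.5 were set after the cells were seen. A stricter per-cell check was tried first, and it and the per-cell marker score alone are given as alternatives. Doublets were kept in the main result and removed with Scrublet (6% expected) in an alternative. UMIs were summed per library and cell type (at least 20 cells) and tested with edgeR 4.0.16 in R 4.3.3 (TMM scaling, filterByExpr), with DESeq2 1.42.0 as an alternative; scripts were tested on simulated data.

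The planned age test used age alone, since labelled sex is contradicted in the middle-aged pair, and needed a sum at each age and at least 2 residual degrees of freedom. The genes, lists and markers were chosen with earlier results of these data known, and the age values named in the text after those values were seen. Totals of 9616652 to 28921825 UMIs per library set the precision of low genes: 3 UMIs in a library or type were taken as the floor. The genes named were the 9 themselves, the pathway genes with the highest level in any type (up to 4 per list), and the 3 genes most like each.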

Additional observations from a re-analysis of the deposited data

Results flagged for a closer look

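Among 26 sets of library values with a mean of at least 10 CPM and 4 to 6 libraries, 3 hold a library far from the others by Dixon's criterion, which flags about 1 in 20 sets by chance. Ptgs2 in blood endothelium stood at 111 CPM in the aged male library, against 0 to 23 CPM in the other 5. It came from 2 of 64 cells, with all 16 UMIs in the 6 cells that carry arterial markers. Ptgs2 in T and NK cells stood at 79 CPM in the middle-aged female library (4 of 26 cells), against 0 to 27 CPM in the other 5. Ptges in fibroblasts stood at 170 CPM in the middle-aged female library, against 49.5 to 84.4 CPM in the other 5. In both libraries concerned Ptgs2 of fibroblasts was high too, at 1326 CPM in the aged male and 1875 CPM in the middle-aged female library, and free RNA carried Ptgs2 at 244 and 285 CPM there. The upper estimate of free RNA was 1.75% of UMIs in the blood endothelial sum and 0% in the T and NK cell sum.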

How the results depend on the processing

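The labels number no replicates but give 1 library of each sex at each age, so labelled sex was tried as a term in the age fits; library was a block wherever types or subsets of the same libraries were compared. The edgeR count of 23 higher levels among cell types ran from 16 to 22 with each library left out in turn and was 13 with sums of at least 50 cells, 13 with cells of at least 1000 genes and 4 with sums thinned to 1 depth (24637 UMIs). The 50-cell and thinned settings leave fewer sums or fewer UMIs. The count of 6 lower levels ran from 3 (without the young female library) to 8, and was 21 with DESeq2, 10 with 50 cells, 10 for clusters without the per-cell check and 0 with thinned sums. Of the 7 leading types against the next, 3 were called in each fit with a library left out, 1 with 50 cells and 0 with thinned sums. The counts of 0 in the age contrasts stayed at 0 with each library left out and with labelled sex in the model, as labelled or exchanged in the middle-aged pair. They were 1 for aged against young with DESeq2, 3 without the filter on low counts, 5 without it for middle-aged against young, 1 for that contrast with clusters alone (Ptgs2 in smooth muscle), and 1 without the filter for aged against middle-aged (Ptgs2 in blood endothelium). The interaction count of 0 ran from 0 to 2 with a library left out (2 without the young female and 1 without the middle-aged male library) and was 1 without the filter. The subset count of 7 ran from 7 to 8.

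Among the 63 single values that the text gives, which were picked after the alternatives had been seen, signs turned for 2 called ones, Ptgs2 in T and NK cells (0.43 for clusters alone) and in blood endothelium (0.30 with thinned sums). Uncalled values that turned were Ptgs2 in fibroblasts against neutrophils (-0.13 with DESeq2, -0.077 for clusters alone), Ptger3 in mast cells against smooth muscle (1.01 with DESeq2, 0.43 for clusters alone, -0.19 to 0.19 with a library left out), Ptger4 in resident against activated macrophages (-0.35 to 0.14 with a library left out), Ptgs2 in aged against young fibroblasts (-0.33 to 1.45 with a library left out), Hpgd in aged against young macrophages (-1.15 to 0.048 with a library left out) and Ptgs1 in blood endothelium of aged against middle-aged libraries (-0.15 to 1.84 with a library left out, and -0.15 with 50 cells). With the per-cell gate alone, Hpgd in macrophages against dendritic cells and monocytes was 1.04 and lost its call; this setting and a stricter per-cell check were chosen after seeing the data. Of the 29 called type contrasts, 35 alternatives lost a call. Counting values the text does not give, 38 alternatives turned the sign of an uncalled type contrast and 36 that of an age contrast or interaction. DESeq2 gave no adjusted p for 16 values, which are left out. The causes of these changes were not tested.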
